A study of Homo sapiens with 18 samples.

Results

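Domains of H3K27me3, the histone mark of Polycomb silencing, were compared between 2 libraries of U937 cells knocked out for both SUV39H1 and SUV39H2 (DKO) and 2 libraries of U937 cells knocked out for SUV39H1 alone (SKO). U937 is an established human acute myeloid leukaemia line. All 4 libraries, of the 18 samples in the series, were chosen by their sample titles and come from cells without SUV39H1, so the comparison addresses what goes with the added loss of SUV39H2. H3K27me3 and H3K9me3 libraries of cells with a control guide (sgControl), 2 per mark, and the 4 H3K9me3 libraries of DKO and SKO cells served as a reference for single results. The labels do not say whether a knockout line was 1 clone or a pool, nor whether replicates were separate cultures, so the spread between replicates may be technical. Each list gives broad domains called per library with epic2, and each domain carries the number of its own library's reads.

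SUV39H1 and SUV39H2 are paralogous methyltransferases that place H3K9me3, the mark of constitutive heterochromatin, best known at pericentromeric repeats. H3K27me3 is placed by Polycomb repressive complex 2, whose catalytic subunit is EZH2 or EZH1, and marks silent developmental genes and, in broad blocks, silent intergenic regions. KRAB zinc finger genes, which encode repressors of transposable elements, lie in tandem clusters on chromosome 19 and are well known for carrying H3K9me3 over their bodies.

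The DKO libraries held 15116 and 15786 H3K27me3 domains, against 15753 and 15967 in the SKO libraries. Reads inside domains came to 69.3 and 47.9 M (mega) in DKO and 70.7 and 59.9 M in SKO. These totals are the depth that the lists show. The 20 housekeeping genes, the 12 myeloid markers and the 9 lymphoid markers examined, among them SPI1, MPO and LYZ, had no H3K27me3 in any of the 4 libraries. HBB, which encodes beta globin and is silent in myeloid cells, was covered whole in all 4. SUV39H1 and SUV39H2 themselves carried no H3K27me3 in any library, so the domain lists do not check the knockouts. The overlap of domains, as the Jaccard index over 10 kb bins, was 0.907 between the DKO libraries, 0.912 between the SKO libraries and 0.883 to 0.893 between DKO and SKO libraries. Against sgControl, either knockout gave 0.697 to 0.712.

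The total length under H3K27me3 was close in both knockouts, and 3 chromosomes moved apart from it. DKO libraries covered 1225 and 1198 Mb in all, against 1210 and 1200 Mb in SKO libraries. The groups overlapped (difference 6.61 Mb, p = 1, exact two-sided permutation test). With 2 libraries against 2, this exact test cannot go below p = 0.333. The sgControl libraries covered less in all, at 1058 and 1062 Mb. Lengths by chromosome are compared below in Mb, not as shares of these totals. Chromosome 7 had 62.1 and 60.4 Mb in DKO, against 75.04 and 74.8 Mb in SKO. Every DKO value lay below every SKO value, and the sgControl libraries, at 61.5 and 61.6 Mb, lay with DKO in Mb. Chromosome 19 ran the other way, with 15.04 and 14.8 Mb in DKO, 12.3 and 12.1 Mb in SKO, and 15.01 and 15.1 Mb in sgControl. On chromosome X the mark spanned 77.1 and 74.4 Mb in DKO, 68.1 and 67.1 Mb in SKO, and 35.8 and 35.7 Mb in sgControl. DKO libraries stood above SKO on both chromosomes without overlap, but only on chromosome 19 were they at the sgControl level in Mb. Each of these 3 differences gave p = 0.333 (exact), the smallest possible. Without chromosome 7 DKO averaged 1150.6 ± 18.1 Mb and SKO 1130.3 ± 7.04 Mb (SD, n = 2 each, p = 0.333, exact). The difference in total length turned to -1.53 Mb on autosomes alone and to -7.02 Mb without DKO replicate 1.

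**Figure D1:**
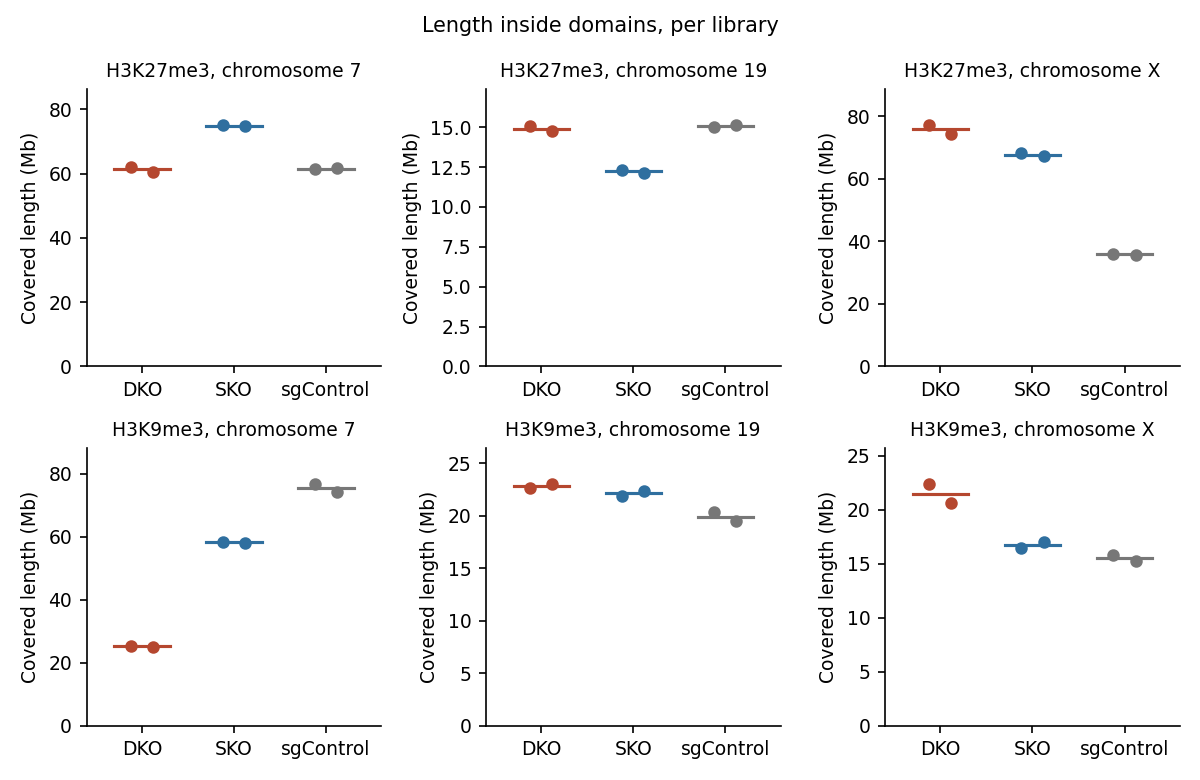
Length inside domains in Mb on chromosomes 7, 19 and X (columns) for H3K27me3 (top) and H3K9me3 (bottom), with a point per library and a line at the mean of DKO, SKO and sgControl. H3K27me3 on chromosome 7 averages 61.3 Mb in DKO, below SKO at 74.9 Mb, while chromosomes 19 and X sit higher in DKO than in SKO. H3K9me3 on chromosome 7 averages 25.2 Mb in DKO, 58.2 Mb in SKO and 75.4 Mb in sgControl.

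Position by position, DKO gained 25.54 Mb and lost 22.5 Mb of H3K27me3 relative to SKO, counted in 10 kb bins marked over at least 50% of their length in both libraries of 1 genotype and in neither of the other. That is 1.46% of the bins unmarked in SKO and 1.93% of those marked in it. Chromosome 7 held 7.85 Mb of the loss, 10.7% of its SKO length, and 0.04 Mb of the gain. Outside it 25.5 Mb was gained and 14.65 Mb lost. Chromosome 19 gained 2.18 Mb and lost 0.13 Mb, and chromosome X gained 3.92 Mb and lost 0.54 Mb. The gains were 4.81% and 4.94% of their unmarked length, and chromosome 18 came next with 2.15%. Chromosome 4 lost 2.42 Mb, 2.72% of its SKO length, the highest share after chromosome 7. Without chromosomes 7, 19 and X the balance was 19.4 Mb gained and 13.98 Mb lost. Leaving out 1 library in turn, which loosens the rule, gave 41.35 to 53.06 Mb gained and 36.61 to 53.21 Mb lost.

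**Figure D2:**
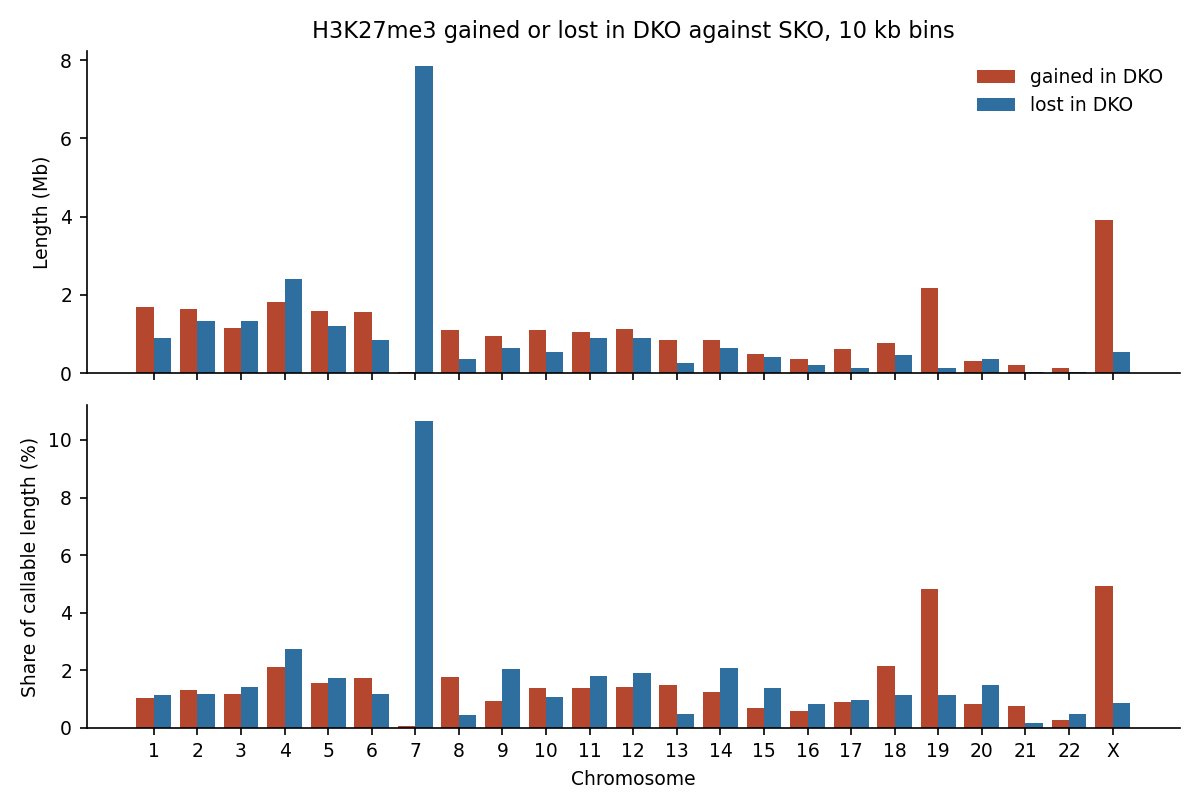
H3K27me3 gained (red) or lost (blue) in DKO against SKO, in Mb (top) and as a percentage of the length unmarked or marked in SKO (bottom), by chromosome. Chromosome 7 holds the tallest loss (7.85 Mb, 10.7%), and chromosomes X (3.92 Mb) and 19 (2.18 Mb) the tallest gains.

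Most changes were short and lay at the edge of existing domains. The gains formed 1916 runs, of which 77.7% were a single bin and 81.1% touched an SKO domain. The losses formed 1607 runs, with 76.2% a single bin. Gained bins outside chromosome 7 were weakly marked, at a median of 0.783 and 0.774 of the typical read density of the 2 DKO libraries. Lost bins outside chromosome 7 were likewise weak in SKO, at 0.744 and 0.743. Gained bins of chromosome 19 stood higher, at 0.904 and 0.899. The marking in sgControl cells differed between changed and other bins. Of the gained bins 31.9% were marked in both sgControl libraries, against 4.14% of all bins that could have been gained. Of the lost bins 50.0% were marked in both, against 77.5% of those that could have been lost. Unmarked in both were 39.3% of the lost bins, against 19.1% of those that could have been lost. The DKO state was thus that of sgControl more often than the background share in both directions. The SKO state was still the larger share in sgControl, with 59.4% of gained bins unmarked in both and 50.0% of lost bins marked in both. The background holds all bins, not weak bins at domain edges alone, so a return to the sgControl state was not tested.

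The longest gains outside chromosome 7 were 90 kb on chr19:52770001-52860000, over ZNF600, ZNF28, ZNF468 and ZNF320, and 90 kb on chr2:142930001-143020000 in KYNU, the gene of kynureninase. Then came 80 and 70 kb on chr2:59950001-60030000 and chr2:59860001-59930000, without a protein-coding gene, and 70 kb on chr19:37570001-37640000 over ZNF540, ZNF571 and ZFP30. The longest losses were 150 kb on chr3:66580001-66730000, without a gene, and 80 kb on chr3:59730001-59810000 in FHIT, a large gene at a common fragile site. They were followed by 60 kb in ATP8A2, a lipid flippase gene, on chr13:25760001-25820000, and by 60 kb on chr18:56290001-56350000, without a protein-coding gene.

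By gene, 145 protein-coding genes gained H3K27me3 and 73 lost it in DKO against SKO, of 19974. Outside chromosome 7 there were 144 gains, 0.877% of the genes that could gain there. A gene was called when the groups did not overlap and the nearest libraries differed by at least 25 percentage points in the share of the gene body inside domains. Genes with at most 75% in SKO could gain (17209), and genes with at least 25% could lose (3291), so the background share called was 0.843% for gains and 2.22% for losses. A model across genes could not settle these calls, because many genes had the same share in both replicates. limma called 113 genes higher (2.65%) and 65 lower (1.52%), but 0 and 0 once the 800 bp grid of the domain edges was added as a minimum error. At an unadjusted p under 0.05 that second fit gave 267 and 163. The gene calls below are therefore a description of 2 libraries against 2, and only the read counts of regions carry a test. Leaving out 1 library in turn gave 200 to 235 genes gained and 114 to 144 lost. Without chromosome 7, where 28 of 193 genes were lost (14.5%), 45 genes were lost (1.45%).

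Reads of each library's own domains were summed in 7894 merged regions with a domain in all 4 libraries. Reads in stretches that a library did not call are not in its sums. The sums were tested by edgeR's quasi-likelihood test with Benjamini-Hochberg adjustment over all 7894 regions. In DKO 391 regions rose (4.95%) and 499 fell (6.32%) at an adjusted p under 0.05. Of those that fell 242 lay on chromosome 7. Outside it 391 rose (5.17%) and 257 fell (3.4%) of 7560. With all chromosome 7 regions removed before the fit, 297 rose and 208 fell. A domain's count grows with its called length, so these values mix a wider call with a denser one. With the called length as an offset, added after the data had been seen, 252 rose and 648 fell. Outside chromosome 7 that fit had 252 that rose and 390 that fell, so the balance there was reversed. Leaving out 1 library in turn gave 139 to 172 that rose, whichever it was, and 211 that fell without either SKO replicate.

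Zinc finger genes of chromosome 19 made up the largest group of gains. Of the 246 ZNF genes there, 52 of the 204 that could gain were gained (25.5%), and 0 of the 53 that could lose were lost. Over all 246 the mean share of the gene body under H3K27me3 was 38.0% and 36.9% in the DKO libraries, 19.4% and 19.1% in the SKO libraries, and 25.3% in each sgControl library. DKO libraries stood above SKO and sgControl, and SKO lowest, with no overlap. In 78 of the genes both DKO libraries were above both SKO libraries, and in 1 both were below. H3K9me3 on the same genes averaged 86.1% ± 0.244 in DKO, 87.8% ± 0.00452 in SKO and 85.9% ± 0.533 in sgControl (SD, n = 2 each). Of the 46 tested regions that touch these genes 39 rose and 0 fell, with a median log2 fold change of 0.68, against 0.00 over all regions tested. With the called length as an offset 34 rose, at a median of 0.24 on the log2 scale. Leaving out 1 library in turn gave 29 to 31 that rose. These genes are paralogues, and some may be close in sequence. No source used here says how reads that match several places were treated, so values of single ZNF genes are uncertain.

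The gains were spread over several clusters. The cluster between 51.6 and 53.6 Mb had 14 gained of the 34 genes that could gain, and its mean share was 51.4% and 45.6% in DKO, 14.3% and 14.4% in SKO, and 44.0% and 46.3% in sgControl. The cluster between 36.2 and 37.8 Mb had 10 of 24, with 39.6% and 38.7% in DKO, 8.92% and 9.05% in SKO, and 11.9% and 14.9% in sgControl. The cluster from 19.7 to 24.1 Mb had 12 of 29, with 57.0% and 58.7% in DKO, 31.8% and 31.01% in SKO, and 5.81% and 6.18% in sgControl. DKO thus lay near sgControl in the first of these clusters and far above it in the third, while SKO was below DKO in all 3. The 59 genes between 55.5 and 58.5 Mb included 7 gains. The 24 genes between 43.5 and 45.1 Mb had 1, with mean shares of 35.5% and 34.2% in DKO and 31.6% and 30.1% in SKO.

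**Figure D3:**
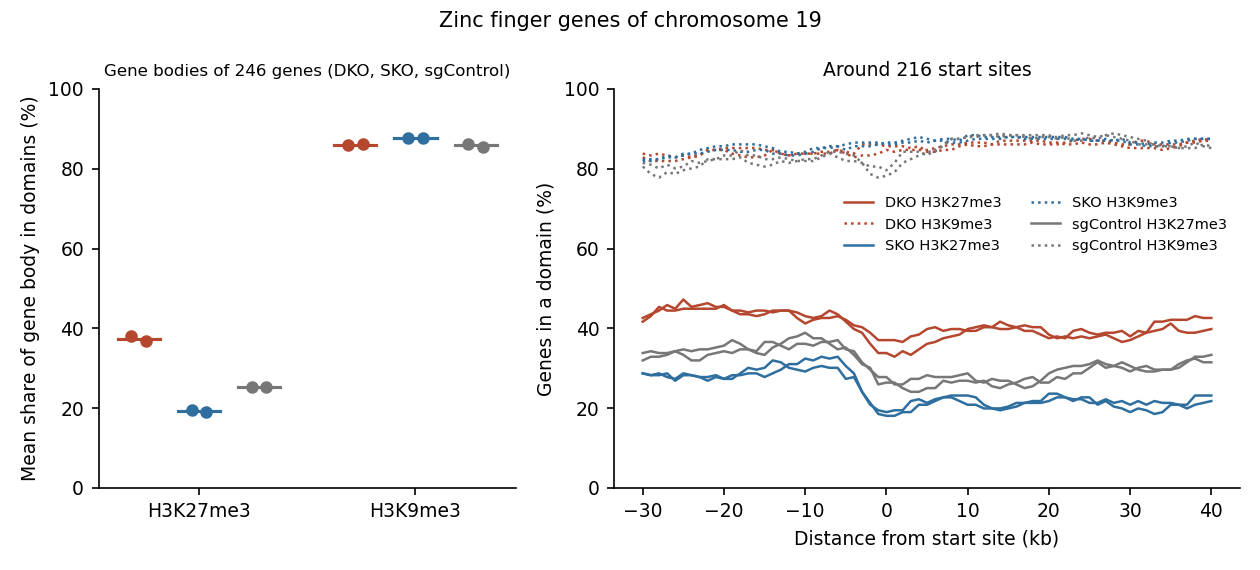
Left, mean share of the gene body inside domains in % for the 246 ZNF genes of chromosome 19, a point per library and a line per genotype mean. Right, the share of 216 genes in a domain by distance from the start site in kb, negative upstream, a line per library, solid for H3K27me3 and dotted for H3K9me3. DKO lies above SKO for H3K27me3 at every distance (37.0% and 33.8% against 18.98% and 18.1% at the start), and H3K9me3 lies above H3K27me3 in every library (78.2% to 86.6% at the start).

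At the start site itself, 37.0% and 33.8% of the 216 ZNF genes with a known start lay in an H3K27me3 domain in DKO, against 18.98% and 18.1% in SKO. For genes of other chromosomes the shares were 15.1% and 14.6% in DKO and 14.5% and 14.2% in SKO. A start was gained at 29 of the 216, whereas 0.74% of all 15812 starts were gained and 0.272% lost. ZNF genes of other chromosomes were gained more rarely than those of chromosome 19, but above the share over all genes. Of 240 that could gain 13 did (5.42%, against 0.843%), and ZNF660 on chromosome 3 was lost, 1 of 30 (3.33%, against 2.22%). Their reads were not one-sided. Of 54 tested regions that touch them 8 rose and 9 fell, 5 of the latter on chromosome 7, at a median log2 fold change of 0.004. With the called length as an offset 5 rose and 7 fell. Of the other genes of chromosome 19, 15 of 1111 were gained (1.35%). Of their 73 tested regions 20 rose (27.4%, against 6.64% of all tested regions that touch a protein-coding gene).

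H3K9me3 was present under nearly all gains of chromosome 19. In DKO 92.7% and 93.6% of the gained bins carried it, and in SKO 91.3% and 91.7%, against 24.8% and 25.5% (DKO) and 25.6% and 26.1% (SKO) of all bins of the chromosome that could have been gained. Its bins with H3K27me3 in both SKO libraries carried H3K9me3 in 90.8% and 90.7% (DKO) and in 82.3% and 83.8% (SKO). Uncalled ZNF genes of the chromosome averaged 82.5% and 83.0% of the gene body in DKO and 84.9% and 84.8% in SKO. H3K9me3 was thus not particular to the gains. Gained bins of chromosome X had little of it, at 7.14% and 5.36% in DKO and 6.63% and 4.85% in SKO, but so had all bins of that chromosome that could have been gained, at 10.4% and 10.98% in DKO and 12.5% and 13.1% in SKO.

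Among genes of at least 5 kb, to which this ranking was limited, the widest gains covered the whole gene body in both DKO libraries and none of it in either SKO library. They were ZNF793, ZNF442, ZNF534, ZNF468 and LOC124904708 on chromosome 19, ZNF501 on chromosome 3, LOC124903401 on chromosome 14 and RGS13 on chromosome 1, all at 100% in DKO and 0% in SKO. ZNF534 and ZNF501 were at 100% in both sgControl libraries, while RGS13 and ZNF468 were at 0%. CDCA7, which encodes a partner of the chromatin remodeller HELLS in DNA methylation upkeep, had 100% in both DKO libraries and 2.33% and 0% in SKO. ZNF10, a KRAB repressor gene on chromosome 12, had 95.2% in both DKO libraries and 0% in SKO. RGS13 encodes a regulator of G protein signalling. It was free of H3K9me3 in DKO and SKO, but had 97.3% and 100% in sgControl. Outside chromosome 7, the widest losses among genes of at least 5 kb were ZNF660, at 0% in DKO and 100% in SKO, and LECT2, which encodes a secreted liver protein, at 0% in DKO and 76.5% and 86.4% in SKO. CYP4F12, a cytochrome P450 gene, had 0% in DKO and 63.1% and 77.9% in SKO. SLC9A4, a sodium/proton exchanger gene, had 21.7% and 8.51% in DKO and 78.9% and 77.6% in SKO, but its region missed the threshold (log2 fold change -0.98, adjusted p = 0.0747). SLC5A9, a sugar transporter gene, had 0% in DKO and 66.7% and 55.5% in SKO, and its region passed the threshold (log2 fold change -0.24, adjusted p = 0.0437). TAF1L had 0% in DKO and 100% and 53.8% in SKO. LOC124905403 had 0% and 31.5% in DKO and 100% in SKO, while the reads of its region missed the threshold (log2 fold change 0.10, adjusted p = 0.78). In sgControl ZNF660, SLC5A9, TAF1L and LOC124905403 were at 100% in both libraries, LECT2 at 96.3% and CYP4F12 at 77.9%, as against 9.83% and 0% for SLC9A4, which was low in DKO and sgControl alike. Most of these losses were weak. In the upper 50% of domains by score ZNF660 kept its call, while LECT2, CYP4F12 and TAF1L did not differ. SLC9A4 and SLC5A9 lost their call there, and LOC124905403 turned sign. Of the gains named here only ZNF501 and LOC124903401 lost their call.

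The 250 bases before the start of 4 of these genes are shown for their CG content, since CG-rich promoters are the known landing sites of Polycomb complexes. CG is in capitals, and the sequences are from RefSeq, build GRCh38.p14. They lie at chr19:37506689-37506938, plus strand (ZNF793, gained), chr1:192635897-192636146, plus strand (RGS13, gained), chr3:44584714-44584963, plus strand (ZNF660, lost) and chr5:135954984-135955233, minus strand (LECT2, lost).
ZNF793: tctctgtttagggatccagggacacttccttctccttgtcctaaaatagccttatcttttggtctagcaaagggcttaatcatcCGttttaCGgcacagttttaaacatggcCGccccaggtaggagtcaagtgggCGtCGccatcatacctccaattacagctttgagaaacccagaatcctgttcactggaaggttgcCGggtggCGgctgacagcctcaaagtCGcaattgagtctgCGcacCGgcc
RGS13: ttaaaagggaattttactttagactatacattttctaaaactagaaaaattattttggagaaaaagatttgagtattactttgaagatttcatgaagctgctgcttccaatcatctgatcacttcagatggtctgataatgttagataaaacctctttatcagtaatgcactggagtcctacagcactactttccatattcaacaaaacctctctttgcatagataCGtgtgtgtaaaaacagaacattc
ZNF660: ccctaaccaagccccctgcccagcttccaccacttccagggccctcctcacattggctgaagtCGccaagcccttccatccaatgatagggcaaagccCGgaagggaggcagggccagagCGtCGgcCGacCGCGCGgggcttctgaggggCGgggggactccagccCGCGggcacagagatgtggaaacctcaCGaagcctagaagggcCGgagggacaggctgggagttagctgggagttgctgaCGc
LECT2: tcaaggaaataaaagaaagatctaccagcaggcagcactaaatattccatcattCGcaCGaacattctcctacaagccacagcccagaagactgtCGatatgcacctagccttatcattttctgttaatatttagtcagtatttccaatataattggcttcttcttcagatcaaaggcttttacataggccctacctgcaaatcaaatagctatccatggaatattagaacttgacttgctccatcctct
ZNF793 holds 10 CG, RGS13 holds 1, ZNF660 holds 14 and LECT2 holds 3, counted on 1 strand, which gives the same count as the other. At least 1 CG was found in 96.9% of 15812 such windows, whose median is 17. The median was 15 over 123 gained genes and 6.5 over 58 lost genes with a window. Gained and uncalled ZNF genes of chromosome 19 had 16 and 15.5. All 4 windows shown lay below the median of 17. As a group lost genes had fewer CG, with quartiles of 2 and 16.75, against 7 and 23 in gained genes. These ranges overlapped, and the difference was not tested.

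Among regions that touch a protein-coding gene, those with the largest increase in reads were led by zinc finger genes. Over all tested regions the highest log2 fold change was 3.41, in a region of chromosome 13 without a gene. The region of ZNF600, ZNF28, ZNF468 and ZNF320 (chr19:52748801-52865600) had 75.02 and 68.5 reads per M (mega) reads in tested regions after TMM scaling (CPM) in DKO and 6.60 and 11.5 in SKO, a log2 fold change of 2.99 ± 0.283 (SE, adjusted p = 0.00467). Its called length averaged 108 kb in DKO and 16 kb in SKO. The region of ZNF606, ZSCAN1, ZNF135 and ZSCAN18 (chr19:57981601-58104800) had 86.6 and 83.4 CPM in DKO and 15.6 and 10.1 in SKO (log2 fold change 2.72, adjusted p = 0.00273). Groups did not overlap in either region, and both still rose per called length (0.23 and 0.31 on the log2 scale). RGS13 (chr1:192628001-192691200) had 38.4 and 40.2 CPM in DKO and 6.13 and 6.51 in SKO (2.64 on the log2 scale, adjusted p = 0.000723). A region in ANK3 (chr10:60450401-60544800), the gene of ankyrin-G, had 49.2 and 55.4 CPM in DKO and 8.61 and 9.71 in SKO (2.51, adjusted p = 0.000703). In both, the difference lay in the called length, and per called length their log2 fold changes were 0.10 and -0.08, short of the threshold. The region of ZNF585A and ZNF585B (chr19:37136001-37192000) rose by 2.37 on the log2 scale (adjusted p = 0.00348), but missed the threshold per called length (0.20, adjusted p = 0.189).

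Outside chromosome 7, the largest decreases among regions that touch a protein-coding gene and passed the threshold were those of BMP2 and GCNT3. Some regions without a gene had lower values, down to a log2 fold change of -2.63 on chromosome 3. BMP2, a bone morphogenetic protein gene (chr20:6717601-6779200), had 9.19 and 5.90 CPM in DKO and 29.5 and 35.3 in SKO (log2 fold change -2.10 ± 0.274 (SE), adjusted p = 0.0129). GCNT3, a mucin glycosyltransferase gene (chr15:59596801-59628000), had 4.27 and 3.995 CPM in DKO and 14.6 and 18.8 in SKO (-2.01, adjusted p = 0.00724). No DKO value reached an SKO value in either. ATOSA (chr15:52700801-52731200), the region of ISLR2, ISLR and the retinol receptor gene STRA6 (chr15:74119201-74196800) and KLHL31 (chr6:53656001-53700800) fell by 1.36, 1.34 and 1.30 on the log2 scale (adjusted p = 0.0279, 0.00589 and 0.0138). Per called length BMP2, GCNT3, ATOSA and KLHL31 missed the threshold, at -0.10, 0.31, 0.07 and -0.15 on the log2 scale (adjusted p = 0.588, 0.0695, 0.808 and 0.28), so the sign turned for GCNT3 and ATOSA. The STRA6 region passed it (-0.21, adjusted p = 0.0188). None of these 5 stood in every leave-one-out fit. BMP2 missed the threshold without SKO replicate 1 or 2 (adjusted p = 0.0605 and 0.0814) and GCNT3 without DKO replicate 1 or 2 (0.0504 and 0.0524). The STRA6 region missed it without SKO replicate 2 (0.0525). ATOSA and KLHL31 missed it without any 1 of the 4 libraries (0.0504 to 0.115 between them). In sgControl BMP2 differed between the replicates, at 0% and 100% of the gene body.

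**Figure D4:**
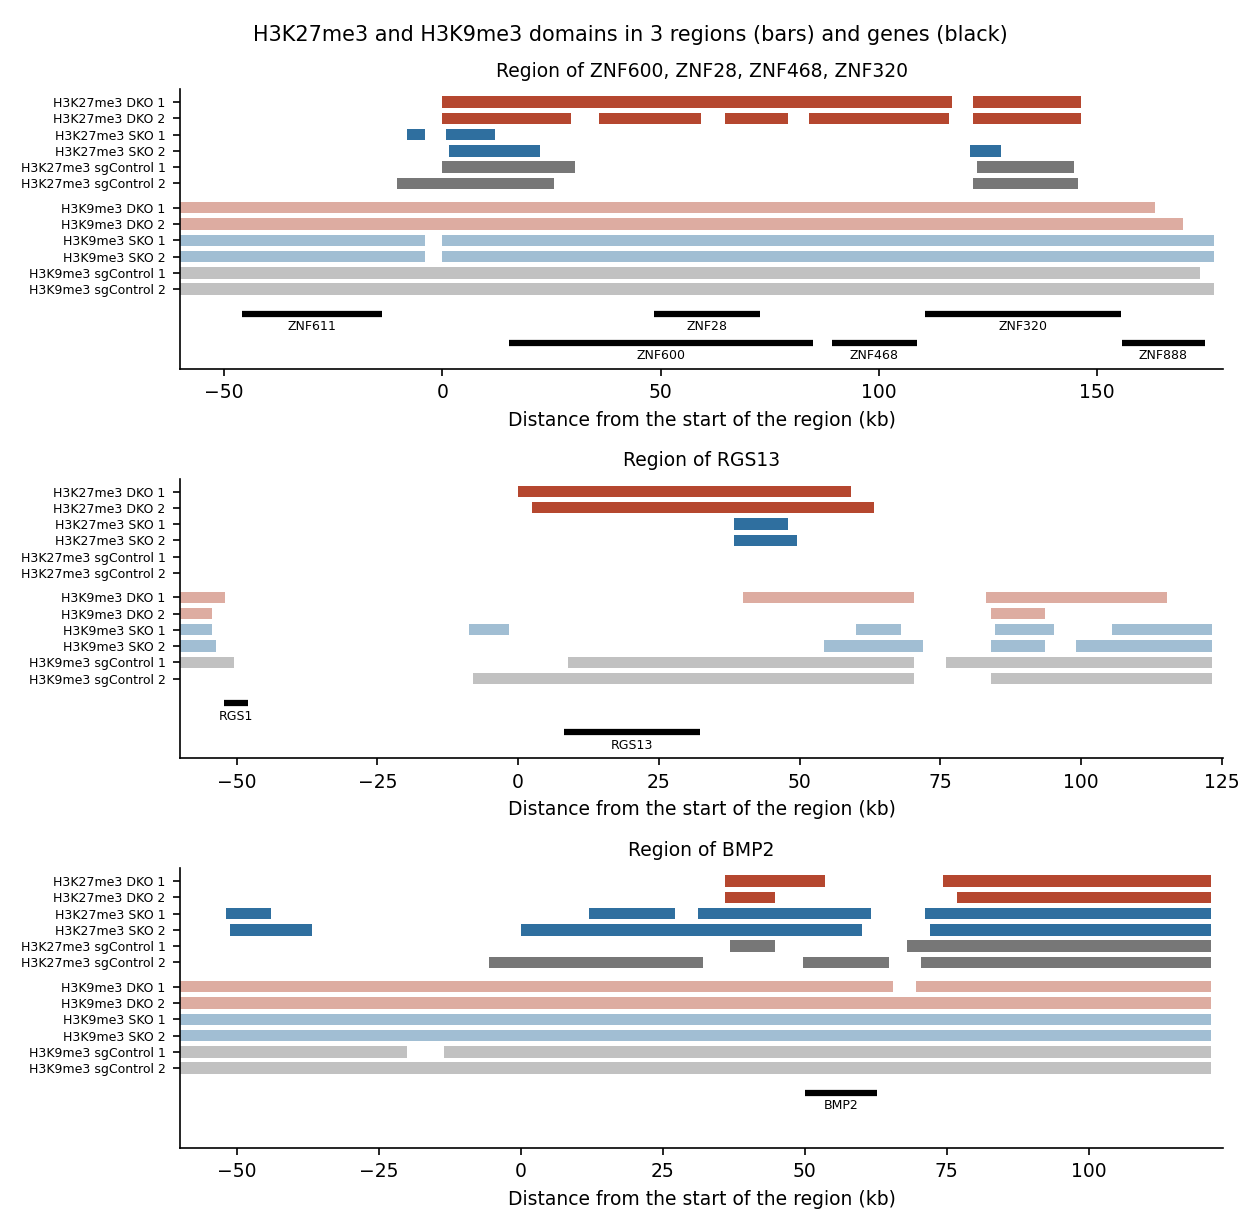
Domains of H3K27me3 (full colour) and H3K9me3 (pale) per library, against distance in kb from the start of the merged region, for the zinc finger region of chromosome 19, RGS13 and BMP2, with genes in black. H3K27me3 fills the first 2 regions in both DKO libraries and only short stretches in SKO, whereas at BMP2 the SKO domains are the longer ones (52.8 kb on average, against 13.2 kb in DKO).

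Chromosome 7 stood apart in read density as well as in length. In 10 kb bins marked in all 4 libraries, its reads per kb relative to the median of the other chromosomes were -0.26 and -0.25 in DKO and 0.22 and 0.21 in SKO on the log2 scale. The difference was -0.47, a ratio of 0.723, and no replicate pair on any chromosome differed by more than 0.0121. The other chromosomes ranged from -0.02 (chromosome 4) to 0.17 (chromosome 19). Along chromosome 7 the difference ran from -0.51 to -0.40 in 16 windows of 10 Mb, with a median of -0.46, so it was present from end to end. H3K9me3 moved the same way on this chromosome, by -0.27 (ratio 0.827), while its other chromosomes ranged from -0.06 to 0.08. The number of copies of chromosome 7 was not measured here, and fewer copies and less mark per copy cannot be told apart.

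**Figure D5:**
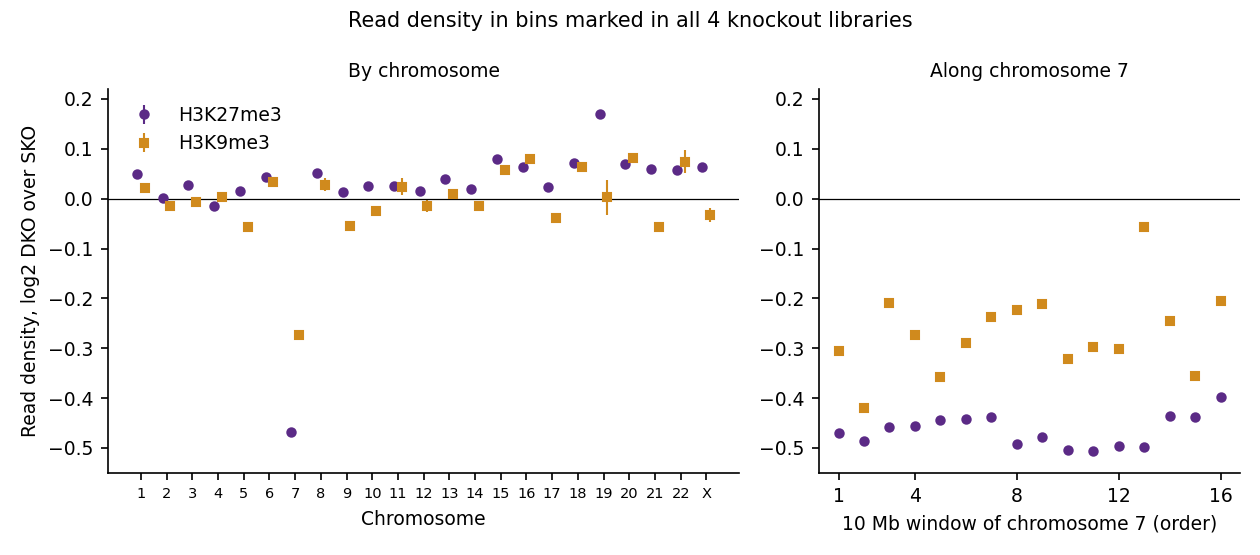
Log2 ratio of read density, DKO over SKO, in bins marked in all 4 libraries of a mark, by chromosome (left, bars span the pairs of libraries) and in 16 windows of 10 Mb in order along chromosome 7 (right), circles for H3K27me3 and squares for H3K9me3. Chromosome 7 lies at -0.47 and -0.27, all other chromosomes between -0.06 and 0.17, and every window of chromosome 7 lies below 0.

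Of the 334 tested regions of chromosome 7, 242 fell and 0 rose, with a median log2 fold change of -0.64. With the called length as an offset 258 fell, at a median of -0.41. The largest decrease among regions with a gene was that of PALS2, a membrane scaffold gene, and GSDME, which encodes the pore-forming gasdermin E (chr7:24613601-24719200). It had 8.08 and 9.83 CPM in DKO and 81.3 and 81.6 in SKO, a log2 fold change of -3.19 ± 0.125 (SE, adjusted p = 0.000202). DYNC1I1, which encodes a dynein intermediate chain, fell in 2 regions, with log2 fold changes of -2.01 and -2.01, and SEM1, a proteasome subunit gene, with -1.95 (adjusted p = 0.000819, 0.00427 and 0.000149). All 4 regions also fell per called length, by 0.35 to 0.68 on the log2 scale. FAM180A lost the mark over its whole body, with 0% in both DKO libraries and 100% in both SKO libraries. CCDC201 had 17.4% and 14.2% in DKO and 100% in both SKO libraries. SAMD9L, an interferon-induced gene of the chromosome 7 region deleted in myeloid disease, had 0% in DKO and 80.4% in both SKO libraries. GJC3, a connexin gene, had 0% in DKO and 79.5% and 90.2% in SKO. In the upper 50% of domains by score SAMD9L and GJC3 did not differ, while FAM180A and CCDC201 kept their call. CDC14C, of the 786 genes of chromosome 7 that could gain, was the 1 gained. The longest loss ran over 440 kb on chr7:46370001-46810000, without a protein-coding gene, and the next over 140 kb in IMMP2L on chr7:110670001-110810000. Lost bins of chromosome 7 carried H3K9me3 in 10.3% and 9.68% in DKO and in 36.7% and 34.5% in SKO. All bins of the chromosome that could have been lost differed alike, with 19.9% and 19.4% in DKO and 46.2% and 45.4% in SKO.

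On chromosome X 77 of 749 tested regions rose and 2 fell, with a median log2 fold change of 0.16. With the called length as an offset 23 rose and 1 fell, at a median of 0.02, and leaving out 1 library gave 21 to 32 that rose. Of 656 genes that could gain, 8 were gained (1.22%, against 0.843% over all genes), namely NR0B1, FAM47C, PABPC5, ZMAT1, FRMD7, CT55, VGLL1 and FMR1NB, and 0 of 228 were lost. CT55, a cancer testis antigen gene, had 87.8% and 41.9% in DKO and 0% in both SKO and both sgControl libraries. ZMAT1 had 100% and 71.0% in DKO and 0% in SKO. NR0B1, which encodes the nuclear receptor DAX1, had 100% in both DKO libraries and 0% and 73.1% in SKO, so the SKO replicates disagreed.

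Developmental regulators, the classic Polycomb targets, held few calls by number. Outside HOX their shares rest on 1 or 2 genes each and were above those over all genes. Of 39 HOX cluster genes none was called. Of the other homeobox genes, 2 of 62 that could gain were gained (3.23%, against 0.843% over all genes), GSX1 and LHX5, both neural regulators. The retinal regulator VSX1 was the 1 lost of 25 that could lose (4%, against 2.22%). GSX1 had 100% in both DKO libraries and 0% in SKO, and VSX1 had 31.3% and 0% in DKO and 81.0% and 88.1% in SKO. By reads, the regions of GSX1 and LHX5 missed the threshold (log2 fold change 0.70 and 0.03, adjusted p = 0.114 and 0.471). VSX1 had no tested region, and it did not differ in the upper 50% of domains by score, where GSX1 and LHX5 kept their call. Neither HOX region nor any of the 31 regions of other homeobox genes rose, and 3 of the 31 fell, 1 of them on chromosome 7. That is 9.68%, against 8.64% of all tested regions that touch a protein-coding gene. Among SOX, FOX, TBX, GATA, ZIC and bHLH genes SOX11 and ZIC1 were gained, 2 of 52 (3.85%), and NEUROD4, a neuronal bHLH gene, was lost, 1 of 24 (4.17%). The region of NEUROD4 missed the threshold (log2 fold change -0.89, adjusted p = 0.134). ZIC1 had 68.5% and 64.2% in DKO and 20.7% and 31.5% in SKO, yet the reads of its region fell slightly (log2 fold change -0.11, adjusted p = 0.0093). SOX11 had 100% in DKO and 68.7% in SKO, and its region missed the threshold (0.01, adjusted p = 0.763).

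Of the 3541 tested regions that touch a protein-coding gene 6.64% rose and 8.64% fell. Chromosome 7 weighs on the second share, as 148 of its 187 such regions fell. Outside chromosomes 7, 19 and X 5.26% fell. Regions of neuronal adhesion and guidance genes fell in 31 of 171 (18.1%), 14 of them on chromosome 7, and rose in 3. Their median was -0.06 on the log2 scale, and no gene of the 86 was called. Potassium channel genes had 7 of 58 regions lower (12.1%), 1 of them on chromosome 7. GABA and glutamate receptor genes had 6 of 68 lower (8.82%), 4 of them on chromosome 7. Cadherin genes, with 0 regions on chromosome 7, had 6 of 72 lower (8.33%, against the 5.26%). PCDH10, a neuronal protocadherin gene, was lost, with 44.2% and 30.2% in DKO and 90.9% and 75.2% in SKO. Its region missed the threshold (log2 fold change -0.92, adjusted p = 0.0572). GABRG1 was lost and GRM6 gained, and the region that GRM6, a retinal glutamate receptor gene, shares with ZNF454, ZNF879 and ZNF354C rose by 1.28 on the log2 scale (adjusted p = 0.00718). The region of GABRG1 missed the threshold (-0.38, adjusted p = 0.593). PCDHB15 and PCDHB11, neighbours in the protocadherin beta cluster, were gained, and their shared region rose by 1.13 (adjusted p = 0.0195).

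Keratin genes had the highest share of losses among the lists with at least 10 genes that could lose. KRT38, KRT34, KRT32 and KRT33B, hair keratin genes of 1 cluster on chromosome 17, were lost, 4 of 17 against the 2.22% background. KRT34 had 0% in DKO, 50.9% in both SKO libraries and 100% in sgControl. KRT38 had 36.9% and 0% in DKO and 100% in SKO. KRT34, KRT38 and KRT32 did not differ in the upper 50% of domains by score. The region that KRT38 and KRT32 share missed the threshold (log2 fold change -1.37, adjusted p = 0.0706), and none of the 8 keratin regions passed it. KRTAP9-1 of the keratin associated proteins was lost and KRTAP10-8 gained. The region of KRTAP10-8 missed the threshold (0.14 on the log2 scale, adjusted p = 0.617). Of the olfactory receptor genes 3 of 127 were gained (2.36%, against 0.843% over all genes), OR10K2, OR11H6 and OR14I1, and 0 of 266 lost. By reads 8 of 73 regions rose (10.96%, against 6.64% of all tested regions that touch a protein-coding gene) and 1 fell. None of the 3 olfactory receptor genes gained differed in the upper 50% of domains by score. IFNL2, an interferon lambda gene, was gained (32.8% and 100% in DKO, 0% in SKO), and KCNF1, a potassium channel gene, was lost. The regions of both missed the threshold, at a log2 fold change of 0.29 for IFNL2 and 0.17 for KCNF1 (adjusted p = 0.415 and 0.403). The sign at KCNF1 was thus opposite to its call.

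Genes of the Polycomb and H3K9 methylation machinery were largely free of H3K27me3. Of 37 Polycomb genes and H3K27 erasers 34 had none in any of the 4 libraries, and none was called. EZHIP on chromosome X, which encodes an inhibitor of Polycomb repressive complex 2, was covered whole in all 4, and its region rose by 0.22 on the log2 scale (adjusted p = 0.00885). PCGF5, a Polycomb subunit gene, had 20.0% and 26.9% in DKO and 0% and 10.6% in SKO, short of the rule. Of 26 H3K9 methylation genes 25 had none. No gene was called among the interferon stimulated genes outside chromosome 7, nor among the nucleic acid sensing, MHC class II, SIGLEC, myeloid, lymphoid, erythroid, leukaemia stem cell, imprinted, domesticated retroviral, ADAMTS and collagen genes. Over all tested regions that touch a protein-coding gene 6.64% rose and 8.64% fell. By reads, 3 of 14 regions of imprinted genes rose (21.4%) and 4 fell (28.6%), all 4 on chromosome 7. Of the leukaemia stem cell regulators 2 of 10 regions rose (20%). Of the domesticated retroviral genes 1 of 8 regions rose and 1, on chromosome 7, fell (12.5% each), and of the lymphoid genes 1 of 4 fell (25%). Of 54 regions of ADAMTS and collagen genes 1 rose (1.85%) and 3 fell (5.56%). These shares rest on few regions, and no list was tested against the shares over all regions.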

How the data were processed

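H3K27me3 and H3K9me3 domains were called in each library by epic2, which follows the SICER method, per the file names. Each deposited list gives a count of the library's own reads per domain and a score, as made by the authors. The score was used only to rank domains. Counts were not normalised for depth, input or the Drosophila spike-in. The submitters' processing notes list the builds hg38 and dm6, Trim Galore 0.6.10, SICER and deepTools 3.5.6. No source used here names the aligner. Domains lie on an 800 bp grid, at least 4000 bp apart, so short gaps are filled.

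Samples were grouped by title. Gene bodies (19974 protein-coding) and starts (15812) came from RefSeq, GRCh38.p14. Merged regions are unions of domains over the 4 libraries, and each library's count is the sum over its own domains there. edgeR 4.0.16 with TMM scaling tested their counts and limma 3.58.1 the gene shares, as DKO over SKO. DESeq2 1.42.0 and the settings of the closing section were alternatives. Scripts were tested on simulated data. Named genes were the widest gaps per direction, up to 3 called genes of each of 31 lists, and the regions with the largest fold change. Members, lists and rules were chosen with earlier results of these data known. The 4 input samples and the SETDB1 lists were not used here. Same-numbered libraries did not deviate together (r = -0.04 over regions, 0.03 over genes), so replicate numbers were not used as pairs.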

Additional observations from a re-analysis of the deposited data

How the results depend on the processing

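Total covered length differed by 6.61 Mb between DKO and SKO and turned to -1.53 Mb on autosomes alone. Without 1 library it ran from -7.02 to 20.2 Mb. Bins gained (25.54 Mb) and lost (22.5 Mb) stayed within 1.5 times under 50 kb bins, a share of 90% or any overlap, equal covered length and the upper 50% of domains. Lost bins came to 14.65 Mb without chromosome 7 and to 13.98 Mb without chromosomes 7, 19 and X. Without 1 library, which loosens the rule, gained bins ran from 41.35 to 53.06 Mb and lost bins from 36.61 to 53.21 Mb. Genes gained and lost were 309 and 168 at a gap of 10 points and 72 and 29 at 50 points. Without chromosome 7, 45 genes were lost, and without ZNF, ZFP and ZSCAN genes 73 were gained. Without 1 library 200 to 235 genes were gained and 114 to 144 lost. limma with the grid floor called 0 and 0. ZNF genes of chromosome 19 gained numbered 34 at 50 points, 46 to 74 under the other settings, and 57 to 63 without 1 library.

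Regions that rose and fell numbered 998 and 1139 by DESeq2 (its Wald test), and 726 and 869 when 2 libraries sufficed. Without chromosome 7, 208 fell. Per called length 252 rose and 648 fell, and outside chromosome 7 252 rose and 390 fell. Without 1 library 139 to 172 rose and 211 to 382 fell, with the lone library of a genotype assumed to vary like the other pair. On chromosome 19, 80 rose when 2 libraries sufficed and 33 to 35 without 1 library. On chromosome X, 216 rose by DESeq2, 23 per called length, 48 without chromosome 7 and 21 to 32 without 1 library. The density difference of chromosome 7 was -0.47 in bins wholly inside domains and -0.47 without any 1 library.

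With the replicate block edgeR called 373 and 492 regions, and limma 68 genes higher and 42 lower, so the pairing moved the limma counts by over 1.5 times. The numbers do not pair the samples, so no result is drawn from that fit. The grid floor, the called length as an offset and the counts without zinc finger genes or without chromosomes 7, 19 and X were chosen after seeing the data. ANK3 (-0.079), GCNT3 (0.31) and ATOSA (0.068) turned sign per called length, and LOC124905403 (15.8 points) in the upper 50% of domains. Of the named genes, 26 lost their call in the upper 50% of domains, which drops weak ones. Among them were LECT2, CYP4F12, SLC9A4, SLC5A9, TAF1L, KRT34, VSX1, SAMD9L and GJC3. Of the named losses only ZNF660, BMP2, KCNF1, FAM180A and CCDC201 kept their call. With 2 libraries per genotype at 47.9 to 70.7 M (mega) reads in domains, changes in weak bins near a domain edge were at the limit of the calls.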
